A study of Mus musculus with 16 samples.

Results

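The genes described here are 10 mouse immediate early genes and their close partners: Fos, Fosb, Egr1, Atf3, Jun, Junb, Ier2, Dusp1, Zfp36 and Nr4a1. They were chosen by name, and all probes that the array's annotation gives for them were taken. Of the 10 listed genes, 9 had a probe, with 1 probe each, and Nr4a1, a nuclear receptor, was not analysed here because none of the named probes was assigned to it. The annotation named a probe for 11055 genes in all. After the filter on dim probes, 8 of the 9 genes entered the tests, out of 9862 genes tested.

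RNA of the smooth muscle of the proximal colon from wild type C57Bl/6 mice was hybridised to 16 Illumina mouse arrays, 4 in each of 4 groups. C/+Lop mice were raised germ free and then gavaged with cecal contents of donors that had drunk 0.1% loperamide, an opioid receptor agonist that slows the gut, for 7 days. C/-Lop mice were germ-free mice gavaged in the same way with cecal contents of donors that had received no loperamide. Recipients themselves received no loperamide, and both recipient groups were killed 4 weeks after colonization. The donors were SPF mice 8 to 10 weeks old; the recipients were called age matched in the design, whereas the study's text also gives an older age for them. SPF mice had been raised with a specific pathogen free microbiota, and GF mice had never been colonized. The ages of the arrayed SPF and GF mice were not given in the sources used here. Nothing in the labels says that each array is a separate animal, so the p-values take in only the variation from array to array.

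Immediate early genes are transcribed within minutes of a stimulus, without the need for new protein, when kinases of the MAP kinase and calcium pathways activate factors already bound at their promoters, such as Srf with its partners and Creb. Many of their products are transcription factors: Fos, Fosb, Jun and Junb pair to form AP-1, Egr1 binds a site of its own, and Atf3 binds the cyclic AMP response element. Others end the response, as do the phosphatase Dusp1, which switches MAP kinases off, and Zfp36 (tristetraprolin), which binds AU-rich messages and brings about their decay. In smooth muscle these genes are known to respond to stretch, agonists and growth factors, and they are also known to respond to handling and dissection of a tissue.

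Promoters of 3 of the genes that were lower than in GF mice, Fos, Fosb and Atf3, are printed here, with Jun added because it was not lower; that of Egr1 is not printed. The sequences come from RefSeq on GRCm38.p6, run 5′ to 3′ on the gene's strand and span 250 bases before to 50 bases after the annotated start. Capitals mark TGACG, the half-site of the cyclic AMP response element that Creb and Atf proteins bind, or its complement CGTCA. Fos lies on chromosome 12 (chr12:85473640-85473939, plus strand), Fosb on chromosome 7 (chr7:19309996-19310295, minus strand), Atf3 on chromosome 1 (chr1:191183284-191183583, minus strand) and Jun on chromosome 4 (chr4:95052173-95052472, minus strand).
Fos: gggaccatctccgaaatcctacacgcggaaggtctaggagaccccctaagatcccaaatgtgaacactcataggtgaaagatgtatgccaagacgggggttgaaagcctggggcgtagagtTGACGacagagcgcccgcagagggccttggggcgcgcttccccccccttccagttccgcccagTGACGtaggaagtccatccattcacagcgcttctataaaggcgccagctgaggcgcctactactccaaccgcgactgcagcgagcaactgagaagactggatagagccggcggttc
Fosb: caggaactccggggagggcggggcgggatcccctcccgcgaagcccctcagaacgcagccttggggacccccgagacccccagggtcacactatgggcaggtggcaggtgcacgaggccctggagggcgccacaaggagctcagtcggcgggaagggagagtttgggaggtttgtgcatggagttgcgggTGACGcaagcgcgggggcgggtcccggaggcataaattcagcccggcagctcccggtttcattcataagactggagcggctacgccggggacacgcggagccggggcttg
Atf3: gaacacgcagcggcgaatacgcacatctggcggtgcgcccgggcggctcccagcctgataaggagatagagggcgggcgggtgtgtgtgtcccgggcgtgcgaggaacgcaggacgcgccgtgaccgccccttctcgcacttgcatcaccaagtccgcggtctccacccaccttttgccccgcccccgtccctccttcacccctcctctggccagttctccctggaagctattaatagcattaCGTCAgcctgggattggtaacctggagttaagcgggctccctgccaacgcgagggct
Jun: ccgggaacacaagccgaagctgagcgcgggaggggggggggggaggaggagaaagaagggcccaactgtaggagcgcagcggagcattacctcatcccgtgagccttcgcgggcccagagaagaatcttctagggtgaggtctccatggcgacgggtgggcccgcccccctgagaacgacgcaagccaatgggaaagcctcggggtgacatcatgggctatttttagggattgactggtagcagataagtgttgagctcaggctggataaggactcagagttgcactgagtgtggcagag
Fos held the half-site at -129 and at -66, counted from the annotated start. Fosb held it at -60 and Atf3 on the opposite strand at -7, whereas the Jun window held no exact match. The Jun window does hold tgacatca, a near match that begins with TGACA in place of TGACG. None of the exact strings searched here counts it. Among the genes not printed the half-site did not always follow the calls. Dusp1 held it and was called lower in C/+Lop relative to GF mice. Junb held it at -106 but was called in no comparison. Zfp36 held none but was called lower in C/+Lop and in SPF relative to GF mice. Of the 10 listed genes, 8 had a promoter in the table, and 6 of these held TGACG on either strand, against 20.8% of all 32851 promoters of the same length. The full element TGACGTCA, which contains TGACG, was found in 1 of the 8, Dusp1, and in 1.79% of all promoters. The CArG box, the site of Srf, was also found in 1 of the 8, Zfp36, and in 1.63% of all promoters. Sites more than 250 bases before the start were not searched, and Egr1 had no promoter here. A window without a CArG box therefore does not show that the gene lacks an Srf site. The AP-1 site TGANTCA was found in none of the 8 and in 7.81% of all promoters. These matches describe the letters of each window on both strands and nothing about occupancy.

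Arrays differed in brightness between groups before normalization. Median raw intensities were 117 to 153 in C/+Lop, 124 to 145 in C/-Lop, 144 to 168 in SPF and 124 to 142 in GF mice. Probes detected per array were 12717 to 13508, 12463 to 13103, 13326 to 13942 and 12364 to 13238 in the same order. SPF arrays thus lay above all GF arrays in both, and changes in SPF over GF mice depend on the normalization. Smooth muscle genes were bright in every group but not equal between the groups. Over the 9 tested, the mean log2 intensity was 10.56 to 10.65 in C/+Lop, 10.45 to 10.81 in C/-Lop, 10.92 to 11.71 in SPF and 10.34 to 11.11 in GF mice. Acta2 alone did not show the higher SPF level and averaged 14.27, 14.27, 14.2 and 14.26 in C/+Lop, C/-Lop, SPF and GF mice. Epithelial markers were bright too, and their mean log2 intensity over 7 genes was 11.85 to 12.07 in C/+Lop, 11.94 to 12.02 in C/-Lop, 11.56 to 12.07 in SPF and 12.05 to 12.33 in GF mice. This mean lay above that of the smooth muscle genes on every array except SPF replicates 2 and 4. The RNA thus also held epithelial transcripts, and the level of an immediate early gene cannot be assigned to muscle cells. On the first principal component, SPF replicates 2 and 4 lay far from the rest (48.1 for each, against 13.6 and 7 for the other SPF arrays; the component held 33.6% of the variance), and GF replicate 2 lay farthest in the other direction (-28.2). Xist, the transcript of the inactive X chromosome, was high in SPF replicate 4 and in replicates 2 and 3 of both recipient groups and low in all 4 GF arrays, so that sex was not balanced between the groups.

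Fos, Fosb, Egr1 and Atf3 were lower in both recipient groups than in GF mice, and Fos, Fosb and Atf3 were lower in SPF mice as well, whereas Egr1 was not called there (-0.92, adjusted p = 0.0537). In C/+Lop mice all 4 genes fell relative to GF mice, where 3.64% of all probes were called lower, by 2.05 for Egr1, 1.51 for Atf3, 1.20 for Fos and 1.17 for Fosb on the log2 scale (SE 0.32, 0.31, 0.24 and 0.19). Jun did not share this pattern. Between C/+Lop and C/-Lop mice 0 of the 8 genes passed, and 0% of all probes did. Values below are log2 intensities after background correction and quantile normalization, fold changes are differences of group means (n = 4 arrays in each group), and a gene was called where its adjusted p in limma was under 0.05.

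**Figure D1:**
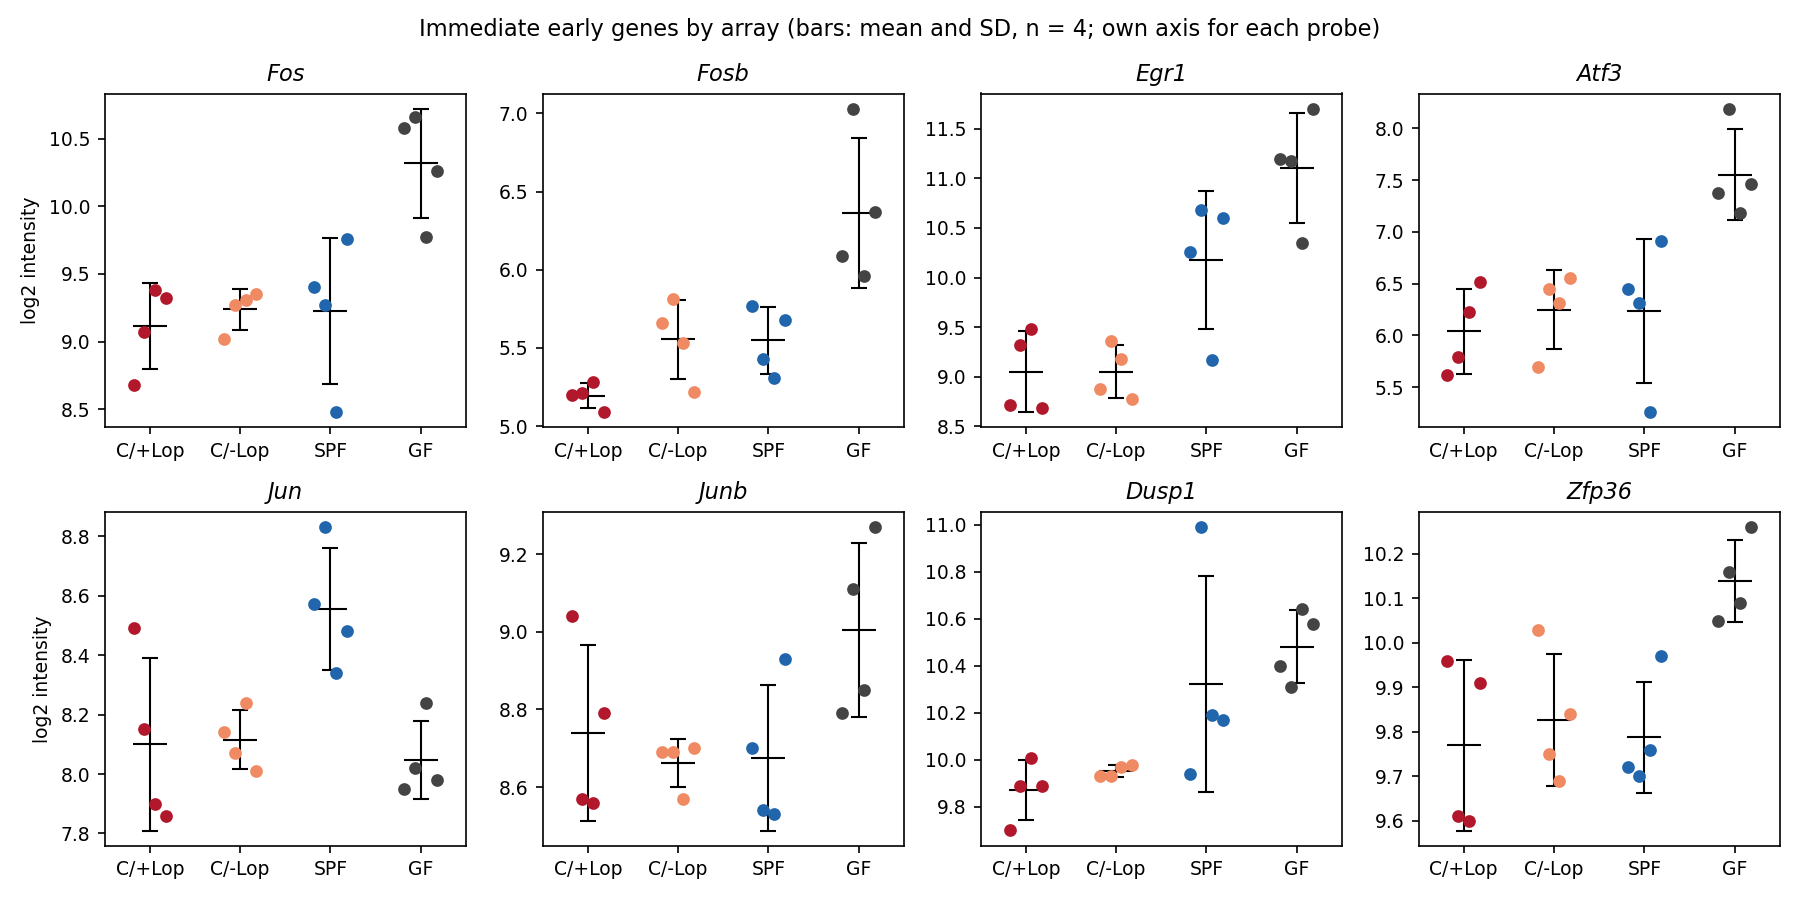
Log2 intensity (vertical axis, on a separate scale for each probe) of 8 immediate early genes on each of 16 arrays, by group; points are arrays, horizontal bars are group means and vertical bars are SD (n = 4). For Fos, Fosb and Atf3 every GF point lies above every point of the other 3 groups, whereas the GF points of Jun (7.95 to 8.24) lie below all SPF points (8.34 to 8.83).

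Among the AP-1 genes, Fos, the best known member, measured 8.68, 9.07, 9.38 and 9.32 in C/+Lop replicates 1 to 4 and 9.02, 9.27, 9.31 and 9.35 in C/-Lop replicates 1 to 4. It measured 9.40, 9.27, 9.76 and 8.48 in SPF replicates 1, 2, 13 and 4, against 10.58, 10.66, 9.77 and 10.26 in GF replicates 1 to 4. All 12 arrays of colonized mice thus lay below all 4 GF arrays, though SPF replicate 13 and GF replicate 3 were 0.01 apart. Fos was 2.30-fold lower in C/+Lop than in GF mice (95% interval 1.61 to 3.29, adjusted p = 0.00982), 2.11-fold lower in C/-Lop than in GF mice (1.48 to 3.02, adjusted p = 0.0296) and 2.13-fold lower in SPF than in GF mice (1.49 to 3.05, adjusted p = 0.00778). The colonized groups did not separate: the fold change was 0.01 for C/-Lop over SPF (interval -0.50 to 0.53) and -0.11 for C/+Lop over SPF (-0.63 to 0.40) on the log2 scale.

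Fosb, a paralog of Fos whose truncated form is long lived, was much dimmer. Its values were 5.20, 5.21, 5.28 and 5.09 in C/+Lop mice and 5.66, 5.81, 5.53 and 5.22 in C/-Lop mice. They were 5.77, 5.43, 5.68 and 5.31 in SPF mice (replicates 1, 2, 13 and 4), against 6.09, 7.03, 5.96 and 6.37 in GF mice. Again no array of a colonized mouse reached the lowest GF array. Before background correction and normalization, however, the group medians of its raw intensity were 179.4 in SPF and 179.6 in GF mice. The C/+Lop values lay at the detection limit, with 3 of 4 arrays detected, which can understate the fold. The size of the change depended on the background correction: without it the changes over GF mice were -0.37 in C/+Lop, -0.28 in C/-Lop and -0.28 in SPF mice (adjusted p = 0.00791, 0.0551 and 0.0171). Fosb was 2.25-fold lower in C/+Lop (interval 1.70 to 2.98, adjusted p = 0.0037), 1.75-fold lower in C/-Lop (1.32 to 2.32, adjusted p = 0.037) and 1.76-fold lower in SPF than in GF mice (1.33 to 2.34, adjusted p = 0.00965). Of the 8 genes it had the smallest p between the recipient groups, at -0.36 for C/+Lop over C/-Lop (interval -0.77 to 0.05, unadjusted p = 0.0779 in limma, adjusted p = 1).

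Jun, the partner that Fos proteins need to bind DNA, followed a different order. It measured 8.49, 8.15, 7.90 and 7.86 in C/+Lop mice, 8.14, 8.07, 8.24 and 8.01 in C/-Lop mice and 8.57, 8.83, 8.48 and 8.34 in SPF mice (replicates 1, 2, 13 and 4), against 7.95, 8.02, 8.24 and 7.98 in GF mice. The SPF arrays were above all GF and C/-Lop arrays, and only C/+Lop replicate 1 reached into their range. Jun rose 1.42-fold in SPF relative to GF mice (interval 1.17 to 1.74, adjusted p = 0.0179), but this rested on SPF replicate 2: without it the change was 0.42 with an adjusted p of 0.0658. In the recipients it stayed near the GF level (0.06 for C/+Lop and 0.07 for C/-Lop over GF mice, adjusted p = 0.845 and 0.833) and was lower than in SPF mice by 1.37-fold in C/+Lop and 1.36-fold in C/-Lop mice (adjusted p = 0.0276 and 0.0381). These calls were lost without SPF replicate 2 (-0.36 in C/+Lop and -0.35 in C/-Lop mice, adjusted p = 0.095 and 0.129). They were also lost without C/+Lop replicate 3 or 4 in C/+Lop mice, and without SPF replicate 1 or C/-Lop replicate 1, 2 or 4 in C/-Lop mice.

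Junb, an AP-1 protein that often restrains Jun, showed small differences only. It ranged over 8.56 to 9.04 in C/+Lop, 8.57 to 8.70 in C/-Lop, 8.53 to 8.93 in SPF and 8.79 to 9.27 in GF mice, and C/+Lop and SPF arrays overlapped with GF arrays. Its changes of -0.26, -0.34 and -0.33 in C/+Lop, C/-Lop and SPF over GF mice did not pass the threshold (adjusted p = 0.236, 0.186 and 0.0887).

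Among the other transcription factors, Egr1, a zinc finger factor downstream of Srf, had the largest changes of the 8 genes in the recipients. It measured 8.72, 9.32, 9.48 and 8.69 in C/+Lop mice and 8.88, 9.36, 9.18 and 8.78 in C/-Lop mice. SPF replicates 1, 2, 13 and 4 gave 10.26, 10.68, 10.60 and 9.17, against 11.19, 11.17, 10.35 and 11.70 in GF mice. All 8 recipient arrays lay below every GF array and below 3 of the 4 SPF arrays, whereas SPF and GF arrays overlapped. Egr1 was 4.14-fold lower in C/+Lop (interval 2.58 to 6.63, adjusted p = 0.00336) and 4.15-fold lower in C/-Lop than in GF mice (2.59 to 6.64, adjusted p = 0.00412). The change in SPF over GF mice was -0.92 (interval -1.60 to -0.24) and just missed the threshold (adjusted p = 0.0537); it passed without GF replicate 3 (-1.17, adjusted p = 0.0191) and without SPF replicate 13 (-1.06, adjusted p = 0.0355). Egr1 also separated the recipients from the SPF mice, being 2.18-fold lower in C/+Lop (adjusted p = 0.0221) and 2.19-fold lower in C/-Lop mice (adjusted p = 0.0265). Both of these calls were lost without SPF replicate 2 (-0.96 in each, adjusted p = 0.0769 and 0.0931) and without replicate 4 of the recipients concerned (-1.0 and -1.04, adjusted p = 0.0573 and 0.0741). They were also lost without replicate 1 of those recipients (-1.02 and -1.07, adjusted p = 0.0631 and 0.0604), and the one for C/-Lop mice without SPF replicate 13 (-0.99, adjusted p = 0.0522). The order of Egr1 was therefore GF, SPF and then the recipients, with only the step between GF and SPF mice not called and no separation of C/+Lop from C/-Lop mice (0.00, interval -0.68 to 0.68).

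Atf3, a stress-induced member of the Atf and Creb family that mostly represses its targets, measured 5.62, 5.79, 6.23 and 6.52 in C/+Lop mice and 5.69, 6.45, 6.31 and 6.55 in C/-Lop mice. It measured 6.45, 6.31, 6.91 and 5.26 in SPF replicates 1, 2, 13 and 4, against 7.38, 8.19, 7.18 and 7.46 in GF mice. As for Fos and Fosb, the GF arrays stood above all others, and SPF replicate 4 was the lowest of the 16 arrays for both Atf3 and Fos. Atf3 was 2.85-fold lower in C/+Lop (interval 1.79 to 4.53, adjusted p = 0.0115), 2.47-fold lower in C/-Lop (1.55 to 3.93, adjusted p = 0.0407) and 2.50-fold lower in SPF than in GF mice (1.57 to 3.98, adjusted p = 0.0104). Its raw intensities were low, with group medians of 169.2 in C/+Lop, 177.2 in C/-Lop and 239.4 in SPF mice, against 277.5 in GF mice. The size of these folds therefore depends on the background correction and normalization.

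The feedback genes moved less. Dusp1, the MAP kinase phosphatase, measured 9.70, 9.89, 10.01 and 9.89 in C/+Lop, 9.93, 9.93, 9.97 and 9.98 in C/-Lop and 9.94, 10.99, 10.17 and 10.19 in SPF mice (replicates 1, 2, 13 and 4), against 10.40, 10.31, 10.64 and 10.58 in GF mice. The recipient arrays lay below all GF arrays, and 3 of the 4 SPF arrays did as well, but SPF replicate 2 was the highest of all 16. Dusp1 fell 1.53-fold in C/+Lop relative to GF mice (interval 1.19 to 1.95, adjusted p = 0.0384). Its changes of -0.53 in C/-Lop and -0.16 in SPF over GF mice were not called (adjusted p = 0.104 and 0.526). Without SPF replicate 2 the change in SPF over GF mice was -0.38 and was called (adjusted p = 0.0343).

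Zfp36 measured 9.96, 9.61, 9.60 and 9.91 in C/+Lop, 10.03, 9.75, 9.69 and 9.84 in C/-Lop and 9.72, 9.70, 9.97 and 9.76 in SPF mice (replicates 1, 2, 13 and 4), against 10.05, 10.16, 10.09 and 10.26 in GF mice. The 4 GF arrays were above the other 12, by as little as 0.02 for C/-Lop replicate 1. Zfp36 fell 1.29-fold in C/+Lop (adjusted p = 0.0486) and 1.28-fold in SPF relative to GF mice (adjusted p = 0.0319), and the change in C/-Lop mice was -0.31 (adjusted p = 0.14). Its raw group medians were 1265 in SPF and 1221 in GF mice, so the fall in SPF mice appeared only after normalization. The calls of Dusp1 and Zfp36 in C/+Lop mice were weak: leaving out 1 array at a time, they passed in 7 and 4 of 16 fits, with adjusted p of up to 0.111 and 0.132. Dusp1 was lost without any 1 of the C/+Lop arrays, without GF replicate 1, 3 or 4 and without C/-Lop replicate 2 or 3. Zfp36 kept its call only without C/+Lop replicate 1 or 4, C/-Lop replicate 1 or SPF replicate 13. In SPF over GF mice Zfp36 was not called without GF replicate 2 or 4 or SPF replicate 1, 2 or 4 (adjusted p of up to 0.0914).

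Ier2, a small nuclear protein of unsettled function, did not enter the tests. Its log2 values ran from 4.48 to 4.88 in C/+Lop, 4.58 to 4.67 in C/-Lop, 4.65 to 4.90 in SPF and 4.87 to 5.26 in GF mice. Only GF replicate 3 had a detection p under 0.05, so a level of this gene was not detectable here.

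**Figure D2:**
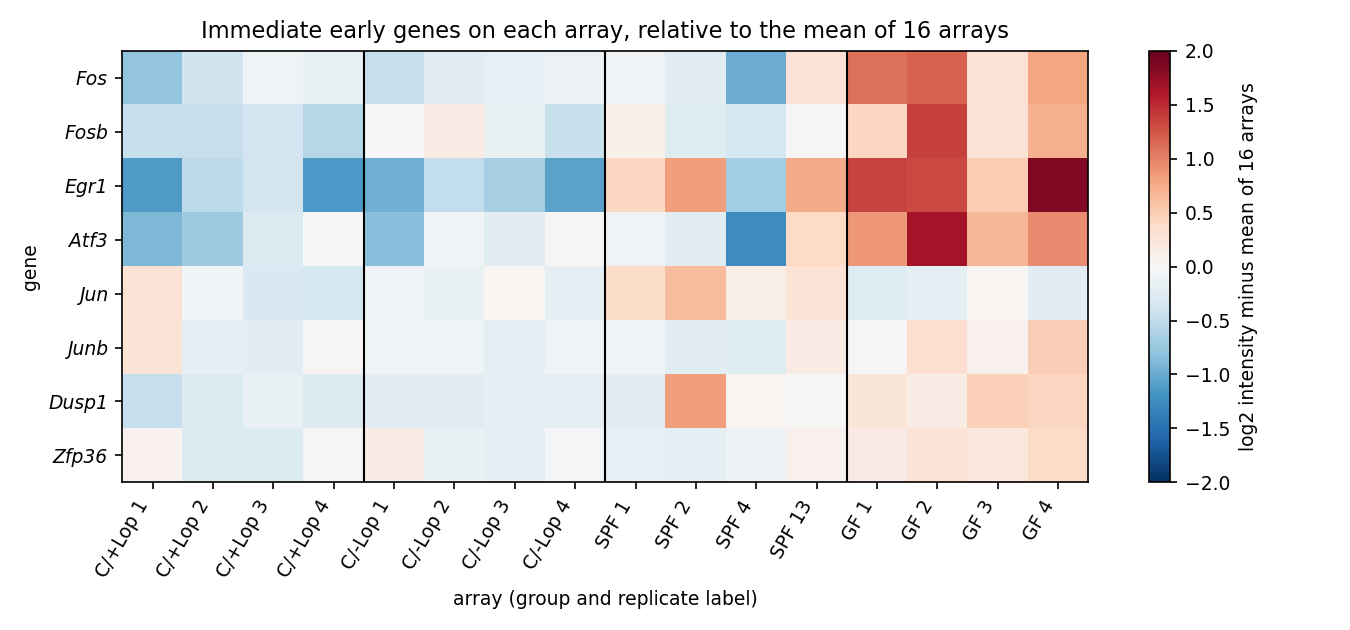
Log2 intensity of 8 immediate early genes (rows) on each of 16 arrays (columns, with group and replicate label), as the difference from the gene's mean over the 16 arrays; red is above and blue below that mean. The 4 GF columns are red for Fos, Fosb, Egr1 and Atf3, and SPF 4 is the lowest column for Fos and Atf3.

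Over the whole list, 6 of the 8 genes fell and 0 rose in C/+Lop relative to GF mice, where 3.64% of all 14102 probes were called lower and 3.45% higher. In C/-Lop mice 4 fell and 0 rose, where 1.29% of all probes were called lower and 1.41% higher. In SPF relative to GF mice 4 fell and 1 rose, where 10% of all probes were called lower and 9.91% higher. All arrays of the colonized group lay below all GF arrays for 6 of the 8 genes in C/+Lop, 7 in C/-Lop and 4 in SPF mice, and for 8.67%, 6.75% and 10.3% of all probes. The median change of the 8 genes was -0.89 in C/+Lop, -0.67 in C/-Lop and -0.59 in SPF over GF mice, where the median over all probes was 0.00, 0.00 and -0.01. The 3 comparisons share the same 4 GF arrays and are not independent of one another.

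The recipients differed from SPF mice in fewer of these genes. In C/+Lop over SPF mice 2 of the 8 fell, Egr1 and Jun, and 10.6% of all probes were called lower and 11.3% higher. In C/-Lop over SPF mice the 2 genes that fell were also Egr1 and Jun, and 8.57% of all probes were called lower and 8.26% higher. The median change of the 8 genes was -0.27 and 0.00 in these comparisons. Between C/+Lop and C/-Lop mice 0 of the 8 genes passed in limma, 0 had an unadjusted p under 0.05, and 0% of all probes were called (608 at an unadjusted p under 0.05). The 95% intervals of the 8 differences between the recipient groups reached from -0.88 for Atf3 to 0.68 for Egr1 on the log2 scale, and the narrowest was that of Zfp36 (-0.29 to 0.17).

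**Figure D3:**
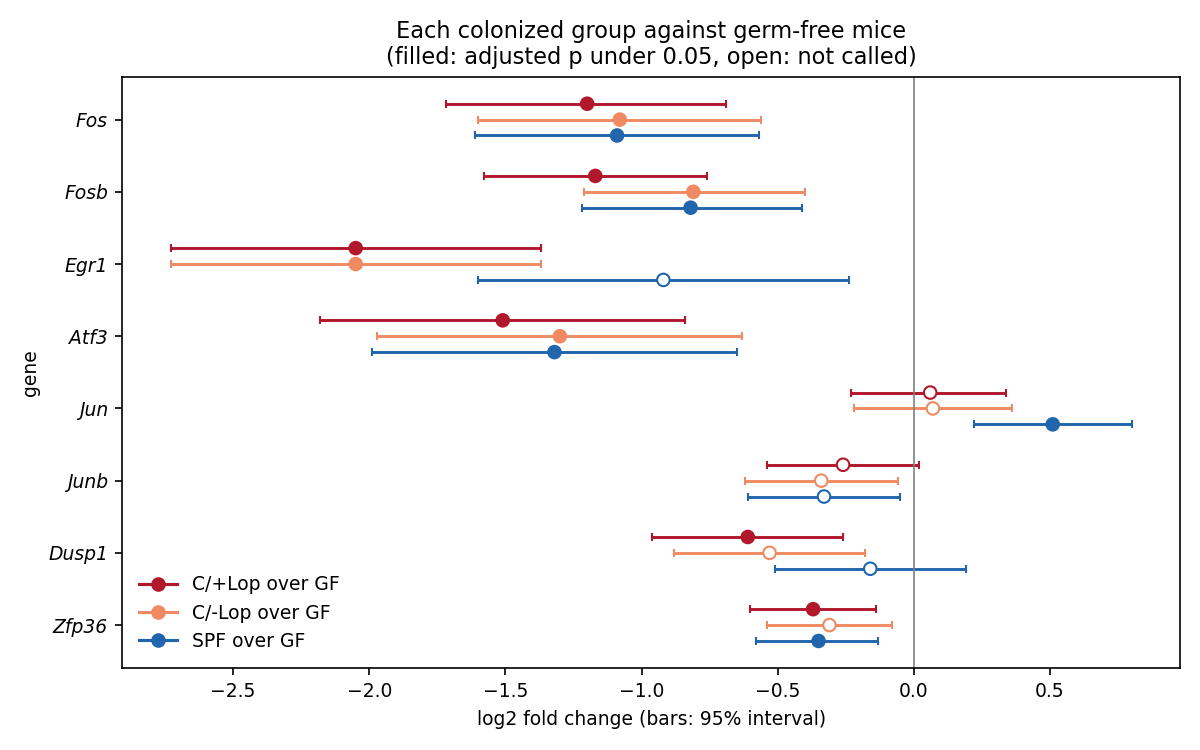
Log2 fold change of 8 immediate early genes in C/+Lop, C/-Lop and SPF mice over GF mice, with 95% intervals (horizontal bars); filled points were called at an adjusted p under 0.05 and open points were not. Fos, Fosb and Atf3 lie left of 0 and are filled in all 3 comparisons, Egr1 lies near -2 in both recipient groups, and Jun lies right of 0 and is filled in SPF mice only.

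How far these calls hold differed between the groups. In C/+Lop over GF mice Fos, Fosb, Egr1 and Atf3 were called in all 16 fits that left out 1 array, and also with sex as a covariate (adjusted p = 0.0326, 0.0108, 0.00936 and 0.039). In C/-Lop over GF mice Egr1 was called in all 16 such fits, but Fos, Fosb and Atf3 in 9, 8 and 6 of them, with adjusted p of up to 0.0822, 0.112 and 0.0916, while their fold changes ran over -1.26 to -0.96, -0.94 to -0.58 and -1.43 to -1.09. Leaving out any 1 of the C/-Lop arrays, or GF replicate 2 or 4, ended the call of each of these 3 genes; so did GF replicate 1 for Fos and Atf3, GF replicate 3 for Atf3, and C/+Lop replicate 2 or 3 for Fosb and Atf3. With sex as a covariate Fos, Fosb and Atf3 were not called in C/-Lop mice (-1.0, -0.82 and -1.16, adjusted p = 0.0832, 0.0801 and 0.111). In SPF over GF mice the calls of Fos, Fosb and Atf3 held in all 16 fits that left out 1 array, but without both SPF replicates 2 and 4 the changes were -0.74, -0.64 and -0.87 and no longer passed (adjusted p = 0.0852, 0.125 and 0.114), and 0 of the 8 genes were called.

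Markers of other cell types also differed between colonized and GF mice. The mean log2 intensity of 7 macrophage genes was 8.27 to 8.51 in C/+Lop, 8.11 to 8.64 in C/-Lop and 7.80 to 8.71 in SPF mice, against 7.12 to 7.76 in GF mice. Of these 7 genes, 3 rose in C/+Lop, 2 in C/-Lop and 4 in SPF relative to GF mice, among them Cx3cr1 and Lyz2 in all 3 comparisons, where 3.45%, 1.41% and 9.91% of all probes were called higher. The 3 tested B and plasma cell genes had means of 6.67 to 7.51 in C/+Lop, 6.86 to 7.41 in C/-Lop and 6.71 to 8.06 in SPF mice, against 5.56 to 5.88 in GF mice. Of 9 smooth muscle genes, 6 rose in SPF relative to GF mice, but 0 without SPF replicates 2 and 4, and 0 changed in either recipient group. In SPF relative to GF mice 3 of 6 fibroblast, 4 of 6 endothelial and 3 of 3 tested genes of the interstitial cells of Cajal also rose, against 1, 0 and 0 without SPF replicates 2 and 4, and 0 of each were called in the recipients over GF mice. Of the 7 epithelial genes whose levels are given above, 3 fell in SPF relative to GF mice (Krt19, Krt20 and Vil1), where 10% of all probes were called lower. Without SPF replicates 2 and 4 the count was 0. In the recipients over GF mice 0 of the 7 were called, where 3.64% of all probes were called lower in C/+Lop and 1.29% in C/-Lop mice. All C/-Lop arrays (11.94 to 12.02) nevertheless lay below all GF arrays (12.05 to 12.33) in mean epithelial level. The part of these shifts in the immediate early genes was not tested, and in bulk tissue fewer cells of a type and less RNA per cell cannot be told apart.

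Other early response genes were taken from a list of 44 further genes known to respond quickly to growth factors or stress, of which 35 were tested. In C/+Lop relative to GF mice 6 of 35 fell and 0 rose, in C/-Lop mice 3 fell and 0 rose, and in SPF mice 7 fell and 2 rose. Of all probes, 3.64%, 1.29% and 10% were called lower in these comparisons, and 9.91% were called higher in SPF relative to GF mice. The median change of the 35 genes was -0.09, -0.14 and -0.04 in these comparisons. Without SPF replicates 2 and 4, 1 of 35 fell and 1 rose in SPF mice.

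Hbegf, a growth factor that activates the EGF receptor, measured 6.86, 7.08, 6.97 and 6.97 in C/+Lop, 6.34, 7.17, 7.00 and 6.83 in C/-Lop and 7.43, 6.53, 7.92 and 5.70 in SPF mice (replicates 1, 2, 13 and 4), against 8.32, 8.89, 7.96 and 8.92 in GF mice. No colonized array reached the GF range. Hbegf was 2.93-fold lower in C/+Lop (adjusted p = 0.0184), 3.22-fold lower in C/-Lop (adjusted p = 0.0238) and 3.09-fold lower in SPF than in GF mice (adjusted p = 0.00753).

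Errfi1, a feedback inhibitor of the same receptor, was 2.00-fold lower in C/+Lop, 1.77-fold lower in C/-Lop and 1.80-fold lower in SPF than in GF mice (adjusted p = 0.0115, 0.0465 and 0.0122). All recipient arrays (9.94 to 10.54 in C/+Lop and 10.34 to 10.55 in C/-Lop mice) lay below the GF arrays (11.00 to 11.75), whereas SPF arrays (9.89 to 11.01) just overlapped with them. In C/-Lop over GF mice Hbegf, Errfi1 and Mcl1 kept their calls in 10, 3 and 9 of the 16 fits that left out 1 array. Without C/+Lop replicate 1 the call of Hbegf in C/+Lop mice was lost as well (-1.52, adjusted p = 0.0568).

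Mcl1, a short-lived survival protein of the Bcl2 family, fell by 0.63 in C/+Lop and by 0.44 in C/-Lop relative to GF mice (adjusted p = 0.0037 and 0.0352). Klf6, a zinc finger factor of the early response, fell by 0.43 in C/+Lop relative to GF mice (adjusted p = 0.0233), and this call was lost without GF replicate 3 or without C/+Lop replicate 1 or 2. Its dimmer probe gave -0.27 and was not called (adjusted p = 0.478). In SPF relative to GF mice Plk3, a stress-responsive kinase, and Sgk1, a kinase induced by serum and glucocorticoids, fell by 1.01 and by 0.73 (adjusted p = 0.0185 and 0.0194), and they were also called lower in C/+Lop relative to GF mice (-0.99 and -0.69, adjusted p = 0.0376 and 0.0481). SPF replicate 4 lay lowest of all 16 arrays for Sgk1, as it did for Fos and Atf3. Ppp1r15a (Gadd34), which relieves the stress-induced block of translation, rose 1.49-fold and Ccn2, a matricellular growth factor, rose 1.69-fold in SPF relative to GF mice (adjusted p = 0.00452 and 0.00932).

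**Figure D4:**
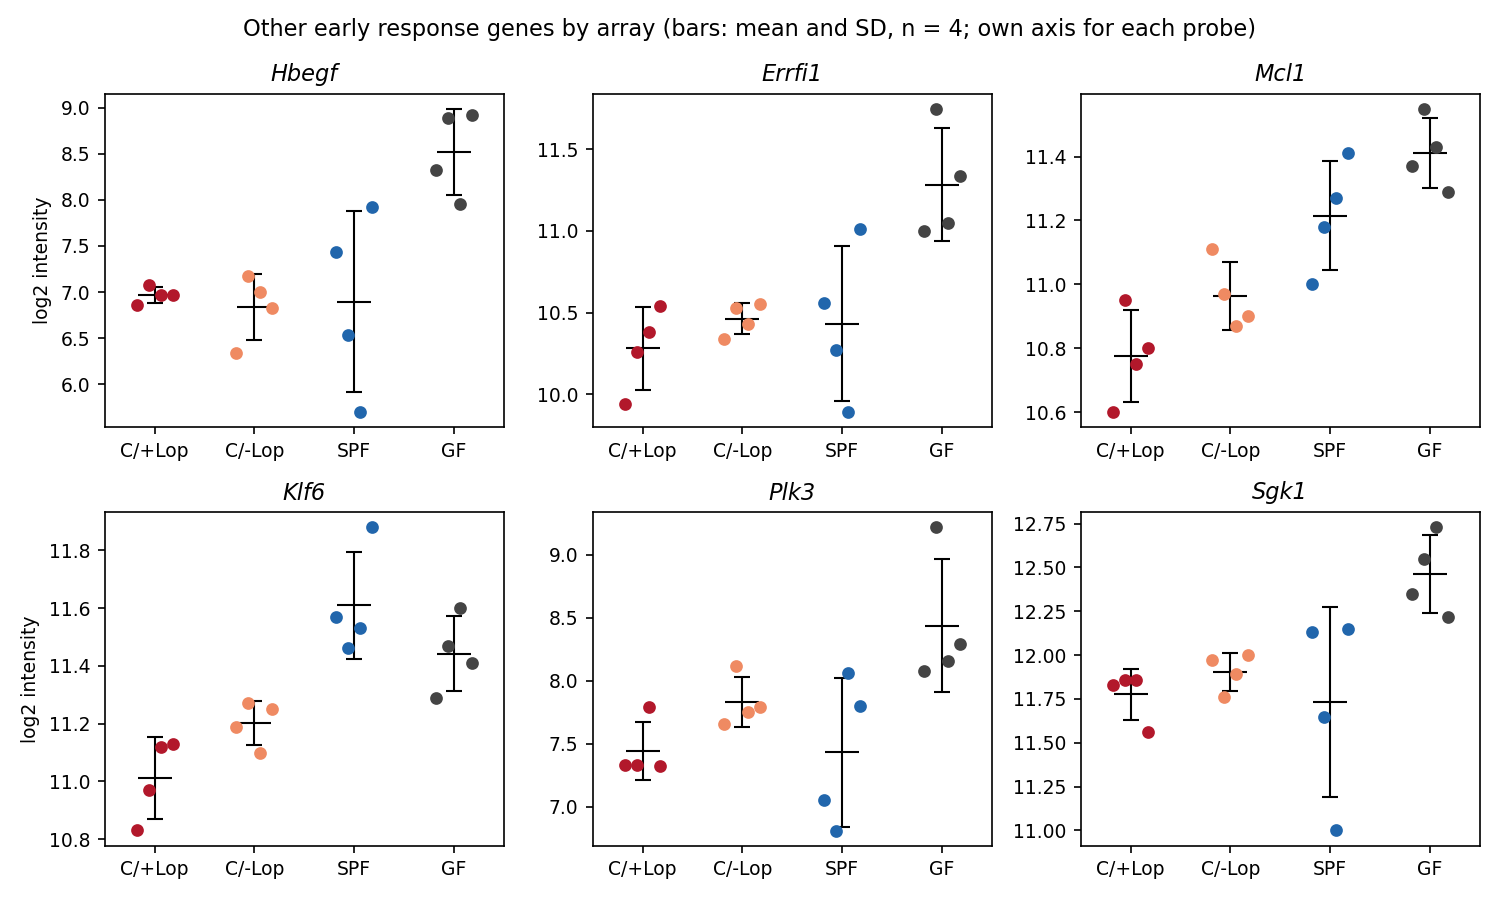
Log2 intensity (vertical axis, on a separate scale for each probe) of 6 other early response genes on each of 16 arrays, by group; points are arrays, horizontal bars are group means and vertical bars are SD (n = 4). The GF points of Hbegf (7.96 to 8.92) lie above all other points, and the C/+Lop points of Mcl1 (10.60 to 10.95) and Klf6 (10.83 to 11.13) lie below all GF points.

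In C/+Lop over SPF mice 6 of the 35 other early response genes fell and 1 rose, where 10.6% of all probes were called lower and 11.3% higher. In C/-Lop over SPF mice 5 fell and 1 rose, where 8.57% were called lower and 8.26% higher. Without SPF replicates 2 and 4, 3 fell and 1 rose in C/+Lop and 4 fell and 1 rose in C/-Lop mice. Mcl1 fell 1.36-fold in C/+Lop relative to SPF mice (adjusted p = 0.00934), as it did relative to GF mice. Ccn2 fell 2.03-fold in C/+Lop and 2.09-fold in C/-Lop mice (adjusted p = 0.00203 and 0.00298), and Klf6 fell 1.51-fold and 1.33-fold (adjusted p = 0.00217 and 0.0172), though its dimmer probe gave -0.24 and -0.34 and was not called (adjusted p = 0.448 and 0.273). Zfp36l1, a paralog of Zfp36 that also destabilises AU-rich messages, fell 1.31-fold in C/+Lop and 1.47-fold in C/-Lop mice (adjusted p = 0.0148 and 0.00389). Id3, an inhibitor of basic helix-loop-helix factors, rose 1.56-fold and 1.45-fold (adjusted p = 0.00195 and 0.00647).

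Of 7 tested AP-1, Atf and Maf genes other than those listed, 0 were called in either recipient group against GF mice, where 3.64% of all probes were called lower and 3.45% higher in C/+Lop and 1.29% lower and 1.41% higher in C/-Lop mice. Mafg, a small Maf protein, was the 1 of 7 that rose in SPF relative to GF mice (1.21-fold, adjusted p = 0.0293), where 9.91% of all probes were called higher. Relative to SPF mice 2 fell and 1 rose in C/+Lop mice (10.6% and 11.3% of all probes) and 1 fell and 1 rose in C/-Lop mice (8.57% and 8.26%). Mafg was 1 of those that fell in C/+Lop mice (-0.24, adjusted p = 0.0447). Atf4, the main factor of the integrated stress response, rose 1.38-fold in C/+Lop and 1.27-fold in C/-Lop relative to SPF mice (adjusted p = 0.00557 and 0.0269), whereas Atf5, a relative under its control, fell 1.59-fold and 1.46-fold (adjusted p = 0.0112 and 0.0331). In C/-Lop over SPF mice Atf4 and Atf5 each kept these calls in 11 of the 16 fits that left out 1 array. Of 4 tested Egr and Nr4a genes or partners, 0 passed in any comparison. Egr2, the paralog of Egr1, was dim: it was detected on 1 of 4 C/+Lop, 2 of 4 C/-Lop, 3 of 4 SPF and 4 of 4 GF arrays, with changes of -0.55, -0.71 and -0.51 over GF mice (adjusted p = 0.113, 0.0755 and 0.09).

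Of 7 tested MAP kinase phosphatases other than Dusp1, 1 fell and 0 rose in C/+Lop relative to GF mice, where 3.64% of all probes were called lower and 3.45% higher. Dusp6, which acts on Erk, was the 1 that fell, by 0.39 (adjusted p = 0.0295). Its 2 dimmer probes gave -0.40 and 0.01 and were not called (adjusted p = 0.123 and 0.986). The call was kept in 10 of the 16 fits that left out 1 array. Dusp7 rose 1.47-fold in SPF relative to GF mice (adjusted p = 0.0025) and fell relative to SPF mice in C/+Lop (1.32-fold) and C/-Lop mice (1.23-fold, adjusted p = 0.0109 and 0.0423). Among 10 tested upstream kinases and transcription factors, 0 were called in C/+Lop relative to GF mice, against the same shares of all probes. In C/-Lop relative to GF mice 1 fell and 0 rose, where 1.29% of all probes were called lower and 1.41% higher. Rps6ka3 (Rsk2), a kinase that phosphorylates Creb and Srf, was the 1 that fell, by 0.63 (adjusted p = 0.0105). Its change in C/+Lop mice was -0.36 (adjusted p = 0.0653). In SPF relative to GF mice 4 of the 10 rose, where 9.91% of all probes were called higher, and 1 of the 10 rose without SPF replicates 2 and 4. Among the 4 was Mapkapk2, the kinase of the p38 pathway that phosphorylates Zfp36 (1.33-fold, adjusted p = 0.0068). Srf itself was lower in the recipients than in SPF mice by 1.52-fold in C/+Lop and 1.51-fold in C/-Lop mice (adjusted p = 0.0171 and 0.0222), in 14 and 12 of the 16 fits that left out 1 array. Its dimmer probe gave 0.03 and -0.25 in these comparisons and was not called (adjusted p = 0.924 and 0.367). For Mapk9 (Jnk2), another of the 4, the brightest probe gave 0.32 in SPF over GF mice, and 2 dimmer probes gave 0.12 and 0.04 and were not called.

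Heat shock genes, which respond to other stresses of a tissue, were set beside these lists. Of 13 tested, 0 were called by their brightest probe in C/+Lop or C/-Lop relative to GF mice. Few probes were called there in all: 3.64% lower and 3.45% higher in C/+Lop, and 1.29% lower and 1.41% higher in C/-Lop mice. A dimmer probe of Hspd1, a mitochondrial chaperonin, was called higher in C/+Lop relative to GF mice (0.64, adjusted p = 0.00882), where its brightest probe gave 0.36 (adjusted p = 0.0709). The same dimmer probe was called lower in SPF relative to GF mice (-0.46, adjusted p = 0.0195), where the brightest gave -0.12 (adjusted p = 0.507). The smallest p in C/+Lop mice belonged to Dnajb1, a co-chaperone of Hsp70 (-0.65, adjusted p = 0.0545). The largest falls of the 13 were those of Hspa1a, 2.54-fold in C/+Lop and 2.01-fold in C/-Lop relative to GF mice. They were not called (adjusted p = 0.122 and 0.327), and the GF arrays of Hspa1a spread from 7.65 to 10.13. Some of the 13 were near the detection limit: Hspa5 was detected on 0 of 4 GF arrays and Hsp90aa1 on 1 of 4. In SPF relative to GF mice 2 of the 13 rose and 1 fell, where 9.91% of all probes were called higher and 10% lower. Hspb1, a small heat shock protein of muscle, and Bag3, a co-chaperone of Hsp70, rose 2.27-fold and 1.30-fold (adjusted p = 0.0165 and 0.0203), and Hspe1, a mitochondrial co-chaperonin, fell 1.59-fold (adjusted p = 0.0188). Hspb1 measured 10.14, 11.44, 10.31 and 11.74 in SPF replicates 1, 2, 13 and 4, against 9.95, 9.20, 10.27 and 9.49 in GF replicates 1 to 4. The mean log2 intensity of the 13 genes overlapped between all groups (8.33 to 8.54 in C/+Lop, 8.43 to 8.79 in C/-Lop, 8.22 to 8.71 in SPF and 8.29 to 8.76 in GF mice).

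The genes whose values ran most like those of Fos over the 16 arrays were found by Pearson's r among 9861 other genes. Atf3 ranked first (r = 0.96, Spearman's rho = 0.92), followed by Errfi1 (0.94), Lrat (0.93), Aste1 (0.92), Hbegf (0.92), Iyd (0.91), Vti1a (0.91), Zfp119a (0.90), Slc34a2 (0.89) and Pdk1 (0.88). Of the listed genes, 1 was among the 10 highest and 3 among the 50 highest, with Fosb (r = 0.82) at rank 40 and Egr1 (r = 0.82) at rank 46. Zfp36 (0.62), Junb (0.57) and Dusp1 (0.47) ranked 620, 860 and 1482, and Jun ran the other way (-0.38, rank 8154). For Fos the GF arrays lie above all colonized arrays, though without a clear gap, and r over all 16 includes the difference between these groups. Over the 12 arrays without GF mice r was 0.95 for Atf3, 0.94 for Errfi1 and 0.80 for Hbegf, but 0.51 for Egr1, 0.37 for Fosb and -0.05 for Zfp36. After each group's mean was removed, r with Fos was 0.89 for Atf3, 0.82 for Errfi1, 0.71 for Egr1 and 0.46 for Fosb. Fos and Atf3 thus varied together also between arrays of the same group, as the low values of SPF replicate 4 in both show, whereas Dusp1 (-0.06) and Zfp36 (-0.06) did not. These values are a description over arrays that share a chip type and normalization.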

How the data were processed

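Proximal colon smooth muscle RNA was hybridised to 16 Illumina mouse BeadChips, 4 per group, and arrays were assigned to groups by the sample labels; the SPF replicate labelled 13 kept that number. The paper describes neither the arrays nor how they were tested. The authors deposited, per probe and array, the mean bead intensity (linear, with no background subtracted and no normalization), its standard error, the count of beads and a detection p-value against the array's negative controls. The authors also deposited normalized log2 values of 16029 probes, and limma is named in the submitters' processing notes (with no version in the sources used here).

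R 4.3.3 and limma 3.58.1 were used. Background was corrected with neqc (normexp, negative controls estimated through the detection p-values, offset 16) and the values were quantile normalized on the log2 scale; they differed from the deposited log2 values by at most 0.0251. The filter kept the 14102 of 25697 probes whose detection p was under 0.05 on 4 or more arrays. A mean per group was fitted over all 16 arrays (12 residual degrees of freedom), and p-values of eBayes were corrected by the Benjamini-Hochberg method across the 14102 probes (threshold 0.05). The fit was tested on simulated data. Probes were named by the platform's table with symbols from GRCm38.p6, and a gene with several kept probes was represented by its brightest. The beads behind each member's value numbered 24 to 57 per array, and the bead standard error was 2.14% to 4.47% of the intensity for the 8 tested genes. The number of arrays limits the precision.

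The listed genes, the other gene lists and the tests were chosen with earlier results of these data known. Named are all probes of the 10 genes; from each other early response list, called members (at most 4 in each direction by smallest p, of which those that bear on the text are given) or, where none was called, up to 2 with the smallest p; and the 10 genes most like Fos. Alternatives were cyclic loess, the deposited log2 values, no background correction, median scaling, no filter or detection on all arrays, 2 groups alone, the methods' t-test, array weights, a replicate block, sex as a covariate and leaving out arrays.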

Additional observations from a re-analysis of the deposited data

Results flagged for a closer look

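Junb in C/-Lop mice had 1 array apart from the others of its group: replicate 3 measured 8.57, against 8.69 to 8.70 for the other 3 arrays, so that the gap was 0.893 of the group's whole range, above Dixon's critical value for 4 samples. The whole range is small, and this was the 1 flag among 32 groups of arrays tested, where chance flags about 1 in 20. Junb was not called in any comparison.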

How the results depend on the processing

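Counts of called genes among the 8 were 6 in C/+Lop over GF, 4 in C/-Lop over GF, 5 in SPF over GF, 2 in C/+Lop over SPF, 2 in C/-Lop over SPF and 0 in C/+Lop over C/-Lop mice. Leaving out 1 array at a time gave 4 to 6, 1 to 5, 4 to 7, 0 to 3, 0 to 2 and 0 to 0. In C/-Lop over GF mice the count of 1 came without GF replicate 2 or 4 or any 1 of the C/-Lop arrays. Against SPF mice 0 were called without SPF replicate 2, in C/+Lop mice also without C/+Lop replicate 4, and in C/-Lop mice also without C/-Lop replicate 1 or 4. With 2 groups alone in the fit, 0 were called in SPF over GF and 1 in C/+Lop over SPF mice. The methods' t-test after Benjamini-Hochberg called 2 in C/+Lop over GF mice. It called 0 in C/-Lop over GF, SPF over GF, C/+Lop over SPF and C/-Lop over SPF mice. Of all 14102 probes it called 385, 102, 125, 976 and 809 in the same order. At an unadjusted p under 0.05 it gave 6, 7, 5, 3 and 2, and 1 in C/+Lop over C/-Lop mice. Over all probes that threshold gave 3225, 2577, 3688, 4129 and 3921, and 893 in C/+Lop over C/-Lop mice. With no filter on dim probes 2 were called in C/-Lop over GF and 1 in C/-Lop over SPF mice. With sex as a covariate 1 was called in C/-Lop over GF and 1 in C/-Lop over SPF mice. Without SPF replicates 2 and 4 the count was 0 in SPF over GF, 1 in C/+Lop over SPF and 1 in C/-Lop over SPF mice, and without GF replicate 2 as well, which was chosen after seeing the data, 1 in SPF over GF and 1 in C/-Lop over SPF mice. The labels give only a replicate number; same-numbered arrays of the 2 recipient groups correlated by 0.02 to 0.36 in their deviations, 2 of the 4 best with their own number and all 4 alike in sex, and other pairs by -0.55 to 0.17. With the replicate block 2 were called in C/-Lop over GF, 1 in C/+Lop over SPF and 1 in C/-Lop over SPF mice. Without background correction Fosb fell by 0.37 in C/+Lop relative to GF mice, where its change is otherwise -1.17. Some alternatives called more: 7 in SPF over GF mice with median scaling (6 fell and 1 rose) and with the replicate block, and in C/-Lop over GF mice 6 with array weights and 5 without SPF replicates 2 and 4. Median scaling shifted the median of all probes to 0.111 in C/+Lop over SPF, 0.142 in C/-Lop over SPF and -0.115 in SPF over GF mice. A value from another kept probe could not be given, because each listed gene has 1 probe. Egr1 in C/+Lop over GF mice was called in all 29 alternatives. With 4 arrays a group and dim signals for Fosb and Ier2, small changes were not detectable.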
